A study of Mus musculus with 12 samples.

Results

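D16S- cells were mouse embryonic fibroblasts (MEFs) that had carried retroviral Oct4, Sox2, Klf4 and c-Myc (OSKM) for 16 days and still lacked SSEA-1 at the cell surface. The study places them on the unsuccessful route of reprogramming, and their mRNA was compared with that of the starting MEFs of day 0 (D0) to ask what they had become. The comparison was made over every gene of the deposited expression table with at least 1 FPKM in D0 or in D16S-. FPKM are fragments scaled to transcript length and to the size of the library. This limit kept 12528 of 24098 genes. Of the kept genes, 10502 reached 1 FPKM in both libraries, 670 only in D0 and 1356 only in D16S-.

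The series holds 12 mRNA-Seq libraries, 1 for each condition, from MEFs followed through days 3 (D3), 6, 9, 12 and 16, and from induced pluripotent stem cells (iPSCs) and ESD3 mouse embryonic stem cells (mESCs). Sorting used the fibroblast protein Thy-1 on days 6 and 9 (D6T+, D6T-, D9T+, D9T-) and the carbohydrate SSEA-1, found on pluripotent cells, on days 12 and 16 (D12S+, D12S-, D16S+, D16S-). Both libraries compared here came from MEFs of mid-gestation embryos whose Oct4 (Pou5f1) gene carries an IRES-EGFP cassette after its stop codon. D0 cells were unsorted, were labelled wild type (WT), and grew in DMEM with fetal bovine serum. D16S- cells were infected with pMXs retroviruses for all 4 factors in the presence of polybrene. By the sample labels they were then fed daily without feeders in FF medium. FF medium is DMEM/F12 with knockout serum replacement, LIF, ascorbic acid, bFGF, the GSK3 inhibitor CHIR99021 and N-2 supplement. The study's methods also name a serum-based mESC medium and a knockout serum replacement medium for reprogramming, without giving the medium of each library. The factors, the medium, the time in culture and the sort all differ between the 2 libraries, so their parts in a difference cannot be told apart. An MEF culture is a mixture of cells, and in a bulk library fewer cells of a type and less RNA per cell cannot be told apart. There was 1 library a side and no replicate, so no difference below has a test, an SD or a p-value.

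During reprogramming, fibroblasts first lose parts of their mesenchymal programme and take on epithelial features, a change called the mesenchymal-to-epithelial transition, and only later switch on the endogenous network of pluripotency genes. Mesenchymal cells lay down collagen and other matrix and hold it through actin stress fibres and integrins. Epithelial cells are joined by cadherins, claudins and desmosomes and carry keratin filaments. Most cells that receive OSKM do not reach pluripotency, and the surface markers Thy-1 and SSEA-1 are used to set them apart from those that do.

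Values are given as FPKM, and differences as D16S- minus D0 on the log2(FPKM + 1) scale, on which 1 is a 2-fold and 2 a 4-fold difference and which understates the change of genes with low values. By this measure 1821 genes (14.5% of the kept genes) were at least 2-fold higher in D16S- and 1620 (12.9%) at least 2-fold lower. These shares are the background for every list count past 2-fold below. The 4-fold limit was passed by 744 higher (5.94%) and 418 lower genes (3.34%). The remaining 9087 genes (72.5%) lay within 2-fold, and the median difference of all kept genes was -0.07. Of the genes 4-fold higher in D16S-, 454 were under 1 FPKM in D0, and of those 4-fold lower, 125 were under 1 FPKM in D16S- and another 125 were still at 10 FPKM or more. Of the 4-fold lower genes, 382 (91.4%) had their highest value of all 12 libraries in D0, and 18 had their lowest in D16S-. Of the 4-fold higher genes, 258 (34.7%) had their highest value of the 12 in D16S-. These genes were chosen by their D0 and D16S- values, so the choice itself raises both shares.

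The precision behind these values is limited. Total FPKM was 648264 in D0 and 525173 in D16S-, and all 12 libraries lay between 484968 and 648264. The depth of D16S- relative to D0, read from the steps between low values, was 0.999. When both libraries were scaled to the same total FPKM, the median of all kept genes moved from -0.07 to 0.20. Of the genes past 2-fold, 68.2% instead of 52.9% were then higher in D16S-. Each library was also scaled by the median ratio of its genes to their geometric mean over the libraries. This left the median at -0.07, with 1806 genes 2-fold higher and 1620 lower. The deposited interval of an FPKM is modelled by cuffdiff and holds no measured biological variation, and its median half-width was 99.6% of the FPKM in D0 and 100.4% in D16S- among genes of at least 10 FPKM. The interval of D16S- lay clear of that of D0 on the upper side for 49 genes and on the lower side for 6.

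**Figure D1:**
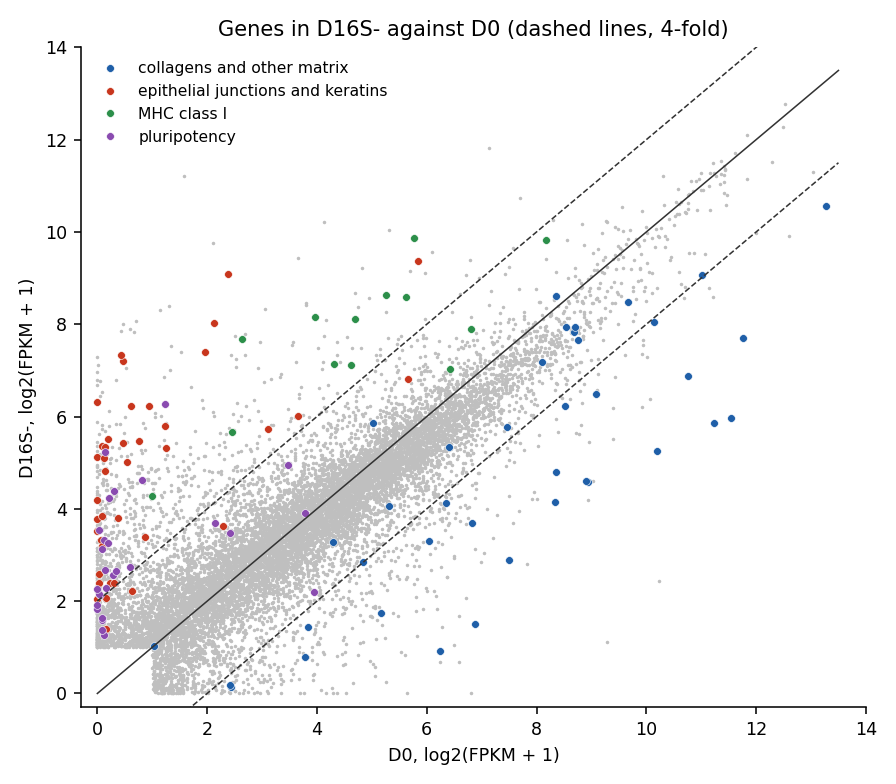
Each point is a kept gene, with log2(FPKM + 1) in D0 on the x axis and in D16S- on the y axis. Grey points are all 12528 genes, coloured points are members of 4 groups of lists, the solid line marks equal values and the dashed lines 4-fold differences. The collagen and matrix genes lie mostly below the solid line at high D0 values, while epithelial junction, keratin and MHC class I genes lie above it.

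Thy1 and the genes of the 4 factors were looked at first, and the SSEA-1 sort itself was not checked. Thy1 (chromosome 9, 43851467 to 43856662, plus strand of the mm9 build, as are all gene positions below) was at 669 FPKM in D0 and 44.8 FPKM in D16S-, a difference of -3.87. Its deposited intervals were 0 to 1388 FPKM and 1.65 to 87.9 FPKM and overlapped. Day 16 was sorted on SSEA-1 and not on Thy-1, and Thy1 was lower still, at 3.73 FPKM, in D16S+. Each gene of the factors was higher in D16S-. Pou5f1, which encodes Oct4, was at 1.99 FPKM in D0 and 2383 FPKM in D16S-, Sox2 at 1.21 and 318 FPKM, Klf4 at 11.7 and 691 FPKM, and Myc at 27.3 and 599 FPKM. Reads from the viral copies of the 4 factors fall on the same genes, so these values do not show how much came from the cells' own copies.

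The matrix programme of the fibroblast was lower but not gone in D16S-. Of 14 collagen genes, 11 were at least 2-fold and 10 at least 4-fold lower, and none was 2-fold higher. Their median difference was -2.77, against -0.07 over all kept genes. Col1a1 (chromosome 11, 94797538 to 94814356, plus strand), a chain of type I collagen, was at 3453 FPKM in D0 and 208 FPKM in D16S-. Col3a1 (chromosome 1, 45368383 to 45406551, plus strand), which encodes type III collagen, had the largest difference of the list, with 1175 FPKM in D0 and 37.2 FPKM in D16S- (-4.94). Even so, Col1a1 in D16S- stood well above its 16.3 FPKM in D16S+ and 38.7 FPKM in iPSCs.

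The collagens did not move as a block. The interstitial chains Col6a3 (488 to 22.9 FPKM) and Col5a1 (321 to 16.8 FPKM) differed by -4.35 and -4.18. The basement membrane chains of type IV collagen kept most of their level, with Col4a1 at 371 FPKM in D0 and 244 FPKM in D16S- and Col4a2 at 408 FPKM in D0 and 227 FPKM in D16S-. Within type VI collagen, whose chains assemble together, Col6a1 was at 417 and 243 FPKM and Col6a2 at 367 and 74 FPKM. Col6a1 was therefore the type VI chain with the smallest difference and Col6a3 the one with the largest.

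Enzymes that fold and crosslink collagen followed, with 10 of 15 at least 2-fold lower, none 2-fold higher and a median of -1.54. The crosslinking lysyl oxidase Loxl1 was at 203 FPKM in D0 and 14.5 FPKM in D16S- (-3.72), and the collagen chaperone Serpinh1 at 1637 FPKM in D0 and 382 FPKM in D16S- (-2.10). Pcolce and the hydroxylase genes P4ha1, P4ha2, Plod1 and Plod2 lay within 2-fold. P4ha1, a prolyl hydroxylase, was at 36.3 and 42.7 FPKM, and Plod1, a lysyl hydroxylase, at 73.6 and 109 FPKM.

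Of 25 other matrix genes, 21 were at least 2-fold lower and 14 at least 4-fold, with a median of -2.23. Biglycan (Bgn, chromosome X, 70728941 to 70741272, plus strand), a small proteoglycan, was at 2983 FPKM in D0 and 62.1 FPKM in D16S- (-5.56). The related proteoglycan decorin (Dcn) was at 117 FPKM in D0 and 1.82 FPKM in D16S-, and tenascin C (Tnc), a matrix glycoprotein of embryonic and healing tissue, at 2399 FPKM in D0 and 57.3 FPKM in D16S-. These 3 and periostin (Postn, 74.6 and 0.902 FPKM) were among the 12 genes with the largest lower values in the comparison. Fibronectin (Fn1), at 1124 FPKM in D0 and 264 FPKM in D16S-, and Sparc, which binds collagen, at 2067 FPKM in D0 and 534 FPKM in D16S-, were about 4-fold lower but still abundant. The matricellular genes Cyr61 (327 and 389.8 FPKM) and Ctgf (31.3 and 57.5 FPKM) were not lower.

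The surface and filament markers of fibroblasts were split. Of 14 kept genes, 7 were at least 2-fold lower, 6 within 2-fold and 1 higher. Lower were Cdh11, a cadherin of mesenchyme (81.5 FPKM in D0 and 4.72 FPKM in D16S-), and the PDGF receptors Pdgfra (38 and 3.73 FPKM) and Pdgfrb (38.9 and 5.15 FPKM). Within 2-fold were vimentin (Vim, chromosome 2, 13495554 to 13504453, plus strand), the intermediate filament of mesenchymal cells, and the hyaluronan receptor Cd44. Vim was at 3641 FPKM in D0 and 2267 FPKM in D16S-, against 188 FPKM in D16S+ and 128 FPKM in iPSCs. Cd44 was at 86 and 83.3 FPKM, against 9.28 FPKM in D16S+, and the receptor kinase Axl was at 226 and 138 FPKM, against 9.51 FPKM in D16S+. The 8 genes with the highest FPKM in D16S- among the collagen, matrix, surface and contractile lists were Vim, Lgals1, Ly6a, Sparc, Tpm1, S100a4, Cyr61 and Thbs1. All but Cyr61 and Ly6a of these had a lower value in D16S- than in D0.

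Ly6a (chromosome 15, 74825308 to 74828064, minus strand), which encodes the stem cell antigen Sca-1, was the marker on the other side. Starting from 16.4 FPKM in D0, it stood at 295, 389, 758 and 876 FPKM in D3, D6T+, D9T+ and D12S- and reached 1179.8 FPKM in D16S-, a difference of 6.09. D16S+ stood at 233 FPKM, iPSCs at 1.62 FPKM and mESCs at 15.3 FPKM. Ly6c1, a neighbour of the same Ly6 family, was at 7.31 FPKM in D0 and 321 FPKM in D16S-. Since reads that map to more than 1 locus had been removed, values of such close relatives are uncertain.

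Transcription factors of mesenchyme were lower to very different degrees. Of 23 kept genes, 14 were at least 2-fold lower, 5 at least 4-fold, and none 2-fold higher (median -1.19). Twist2, a basic helix-loop-helix factor of dermal mesenchyme, was at 435 FPKM in D0 and 48.4 FPKM in D16S-, and Snai2, a zinc finger repressor of epithelial genes, at 10.5 FPKM in D0 and 0.419 FPKM in D16S-. Zeb1 and Snai1, which also repress epithelial genes, were at 13.6 and 5.39 FPKM and at 57.5 and 21.3 FPKM. Prrx1, a homeobox factor of limb and connective tissue mesenchyme, was at 44.4 FPKM in D0 and 30.6 FPKM in D16S- and at 2.61 FPKM in D16S+. Zeb2 was at 4.77 and 3.73 FPKM, and at 0.286 FPKM in D16S+. Prrx1 and Zeb2 were thus within 2-fold of D0, whereas Twist2 and Snai2 were not.

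Genes of the contractile cytoskeleton had a median of -1.47, with 10 of 14 at least 2-fold lower. The smooth muscle type genes Tagln (974 FPKM in D0 and 73.3 FPKM in D16S-), Myl9 (327 FPKM in D0 and 26.3 FPKM in D16S-) and Acta2 (675 FPKM in D0 and 71.4 FPKM in D16S-) differed most. Vinculin (Vcl), which links actin to adhesions, was at 75.5 and 111 FPKM. Acta2 and Tagln were lower in D12S-, at 36.8 and 45.7 FPKM, than in D16S-.

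Apart from the matrix, the genes with the largest lower values included secreted proteases and a chemokine. By the rule of size used to name genes (at least 10 FPKM in the higher library and a locus of at least 1000 bases), the first 12 were Mmp3, Mcpt8, Mir7082, Mmp10, Ccl12, Bgn, C1qtnf2, Gzme, Dcn, Tnc, Postn and Ptgis. Mmp3 (chromosome 9, 7445822 to 7455972, plus strand), the matrix metalloproteinase stromelysin-1, was at 624 FPKM in D0 and 1.17 FPKM in D16S- (-8.17) and already at 9.25 FPKM in D3. Mcpt8 (chromosome 14, 56701003 to 56704053, minus strand), a serine protease named for mast cells, was at 1201 FPKM in D0 and 4.43 FPKM in D16S-, and Gzme, a granzyme gene of the same protease cluster, at 89.4 and 1.08 FPKM. Mir7082 is a microRNA gene and was listed at 0 in D16S-, and the chemokine gene Ccl12 was likewise listed at 0 against 49 FPKM in D0. An FPKM of 0 can also be a failed estimate. Leaving out genes whose cuffdiff status was not OK kept the count of 4-fold lower genes at 418, so no gene in that count had a failed status.

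Markers of skeletal muscle were present in D0 and moved with these genes. All 9 kept members of an 11-gene muscle list were at least 2-fold lower in D16S-, and their summed level was 383.8 FPKM in D0 and 40.6 FPKM in D16S-. Myog, a myogenic transcription factor, was at 24.2 FPKM in D0 and 0.173 FPKM in D16S-, Myh3, an embryonic myosin, at 37.4 FPKM in D0 and 0.196 FPKM in D16S-, and Myod1 at 4.96 FPKM in D0 and listed at 0 in D16S-. Over the 12 libraries this sum was between 18.6 FPKM in D12S+ and the value of D0. Its part in the differences of contractile and other genes was not tested.

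**Figure D2:**
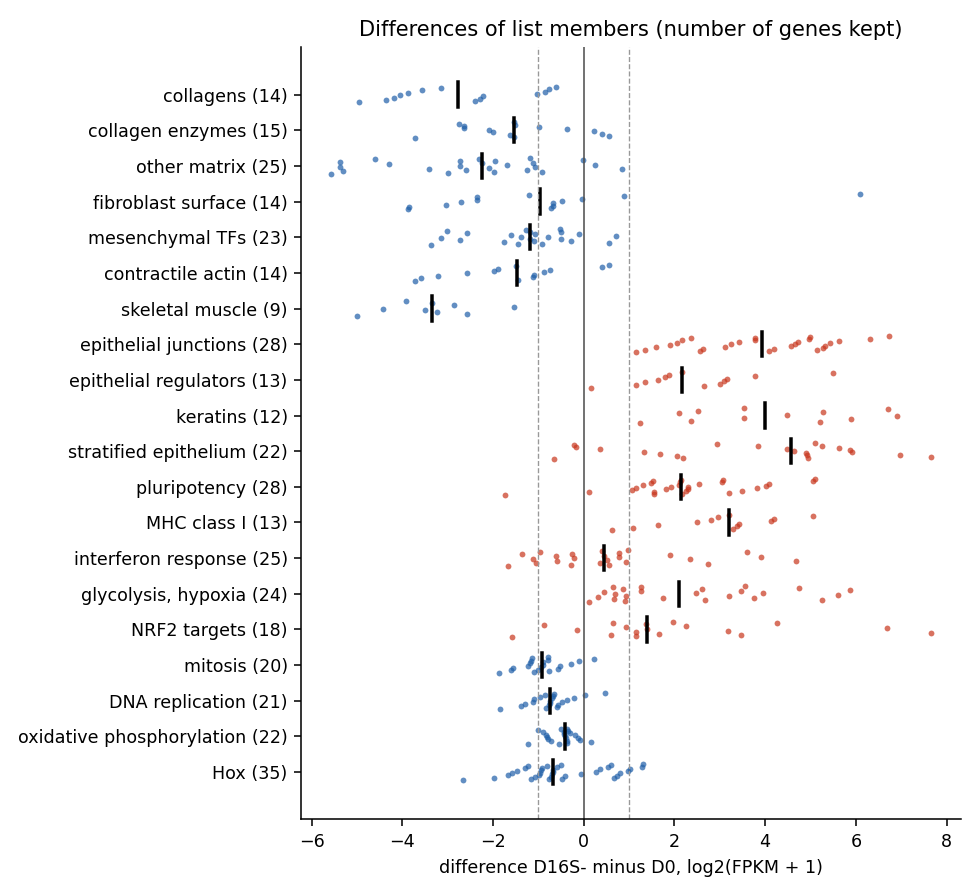
Each point is a kept member of a list, placed by its difference between D16S- and D0 on the log2(FPKM + 1) scale, with the list and its number of kept genes on the y axis. Black bars are medians, dashed lines mark 2-fold, blue lists have a median below 0 and red lists above 0. All 28 epithelial junction genes lie to the right of the 2-fold line, and Ly6a is the far outlying point of the fibroblast surface list.

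Epithelial junction genes were higher without exception. All 28 were at least 2-fold higher in D16S- and 24 at least 4-fold, with a median of 3.92 and a range from 1.16 to 6.73. The medians of the same genes against D0 were higher in D12S+ (4.69) and D16S+ (4.36), and 3.85 in iPSCs. The background share of genes 2-fold higher was 14.5%. Repressors such as Snai1, Snai2, Zeb1 and Zeb2, whose levels are given above, bind a 6-base sequence called an E-box in the promoters of epithelial genes, so the promoters of this list were searched for it. The search used CAGGTG and its reverse complement CACCTG, which covers both strands, in RefSeq promoter windows of the GRCm38.p6 build from 250 bases before to 50 bases after the gene start. Of 28 genes, 17 had a window and 14 of these held the motif, and 18 of their 22 windows (81.8%) did, against 6640 of 32851 windows of all genes (20.2%). Cdh1 was among the genes without a window. The share was 60% of 10 windows of keratin genes, 37.5% of 8 windows of epithelial regulators, 16.7% of 12 windows of collagen genes and 5.26% of 19 windows of other matrix genes. It was 31.7% of the 641 windows of genes 4-fold higher in D16S-, 16.2% of the 358 windows of genes 4-fold lower and 16.8% of the 8922 windows of genes within 2-fold. A match is a run of letters and not a measured binding site.

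The promoters of 4 junction genes whose E-boxes lie close to the start are shown up to base 30 of the gene, read on the strand of the gene, with the E-boxes in capitals. Epcam lies at chr17:87635729-87636008, plus strand, Cldn4 at chr5:134946905-134947184, minus strand, Cldn7 at chr11:69965171-69965450, plus strand and Spint2 at chr7:29281948-29282227, minus strand, all in GRCm38.p6.
Epcam: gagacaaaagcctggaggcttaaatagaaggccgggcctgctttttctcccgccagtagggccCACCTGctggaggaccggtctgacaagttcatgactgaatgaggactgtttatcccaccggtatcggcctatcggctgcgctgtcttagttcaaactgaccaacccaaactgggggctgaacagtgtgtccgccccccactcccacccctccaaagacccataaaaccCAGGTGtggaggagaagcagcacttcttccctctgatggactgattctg
Cldn4: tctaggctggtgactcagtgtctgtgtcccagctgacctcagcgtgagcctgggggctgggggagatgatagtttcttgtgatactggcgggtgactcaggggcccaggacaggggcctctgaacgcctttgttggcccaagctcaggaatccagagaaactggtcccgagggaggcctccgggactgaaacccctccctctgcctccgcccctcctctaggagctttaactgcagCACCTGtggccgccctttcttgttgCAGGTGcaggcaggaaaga
Cldn7: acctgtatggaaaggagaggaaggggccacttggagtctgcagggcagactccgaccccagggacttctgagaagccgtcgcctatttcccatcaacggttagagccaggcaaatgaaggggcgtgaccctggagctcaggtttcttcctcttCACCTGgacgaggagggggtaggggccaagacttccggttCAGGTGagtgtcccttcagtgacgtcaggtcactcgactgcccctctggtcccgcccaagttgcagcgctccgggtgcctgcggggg
Spint2: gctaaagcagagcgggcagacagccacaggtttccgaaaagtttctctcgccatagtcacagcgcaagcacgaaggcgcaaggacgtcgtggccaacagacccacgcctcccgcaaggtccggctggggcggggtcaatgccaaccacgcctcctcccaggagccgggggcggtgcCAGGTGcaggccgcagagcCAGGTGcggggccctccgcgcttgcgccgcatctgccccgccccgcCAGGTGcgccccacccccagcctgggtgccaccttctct
In Epcam the E-boxes begin 187 and 19 bases before the start, in Cldn7 97 and 57 bases before it, and in Spint2 74, 55 and 9 bases before it. In Cldn4 an E-box begins 14 bases before the start and another at base 12 of the gene.

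The genes behind these promoters had little signal in D0 and moderate to high levels in D16S-. Cldn4 (chromosome 5, 135420996 to 135422804, minus strand in mm9), a claudin of tight junctions, was at 0.387 FPKM in D0 and 146 FPKM in D16S- (6.73). Cldn4 was at 1.81, 1.03, 16.2 and 33.7 FPKM in D3, D6T+, D9T+ and D12S-, all well below its level in D16S-. These libraries need not follow the same cells. Epcam (chromosome 17, 88035319 to 88050446, plus strand), an adhesion molecule of simple epithelia, was at 0.528 FPKM in D0 and 74.6 FPKM in D16S-, and Spint2, an inhibitor of membrane serine proteases, at 2.89 FPKM in D0 and 167 FPKM in D16S-. Cldn7 was listed at 0 in D0 and was at 34.1 FPKM in D16S-.

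E-cadherin (Cdh1, chromosome 8, 109127251 to 109194146, plus strand), the cadherin of adherens junctions, was at 0.15 FPKM in D0 and 44.6 FPKM in D16S- (5.31). Its level in D16S- was below the 129.9 FPKM of D16S+ and the 203 FPKM of iPSCs, while N-cadherin (Cdh2), the cadherin of mesenchyme, was at 16.5 and 2.41 FPKM. Among the desmosome genes, desmoplakin (Dsp) was at 0.929 FPKM in D0 and 73.6 FPKM in D16S- and plakophilin 1 (Pkp1) at 0.0844 FPKM in D0 and 33.5 FPKM in D16S-. Both were higher in D16S- than in D16S+, which had 38.7 and 6.19 FPKM. The smallest difference of the list was that of plakoglobin (Jup), which also serves adherens junctions, with 49.3 FPKM in D0 and 111 FPKM in D16S-.

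Regulators of epithelial identity were higher at low absolute levels. Of 16 genes, 13 were kept and 12 of these were at least 2-fold higher and none lower, with a median of 2.17, or 1.83 over all 16. A member under 1 FPKM in D0 was kept only through its value in D16S-, so the counts over kept members of this and the following lists describe those genes and not the list. Elf3, an ETS factor of epithelia, was at 0.273 FPKM in D0 and 56.6 FPKM in D16S-, and Grhl3, a grainyhead factor of surface epithelium, at 0.314 FPKM in D0 and 10.2 FPKM in D16S-. The splicing regulators Esrp1 and Esrp2, which set epithelial splice forms, were at 5.31 and 13 FPKM in D16S- and at 0.012 and 0.563 FPKM in D0. Grhl2 reached 2.18 FPKM in D16S- against 11.9 FPKM in D16S+, and Esrp1 was at 32.7 FPKM in D16S+. Klf5 was at 11.6 and 13.1 FPKM, and Trp63, the master regulator of stratified epithelium, stayed under 1 FPKM in both libraries (0.568 and 0.117 FPKM).

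Keratins reached the level of major structural genes. All 12 kept members of an 18-gene list were at least 2-fold higher, 11 at least 4-fold, and their median was 4.00, or 2.44 when the members under 1 FPKM in both libraries were included. Krt8 (chromosome 15, 101827142 to 101834773, minus strand) and Krt18 (chromosome 15, 101858647 to 101862457, plus strand), which pair in simple epithelia, were at 4.22 FPKM in D0 and 543 FPKM in D16S- and at 56.5 FPKM in D0 and 664 FPKM in D16S-. Krt19, another simple keratin, was at 3.39 FPKM in D0 and 261 FPKM in D16S- and Krt7 (chromosome 15, 101241474 to 101260744, plus strand) at 0.352 FPKM in D0 and 161 FPKM in D16S-. The summed FPKM of the 18 genes was 67.3 in D0, 569.4 in D12S-, 1771 in D16S-, 634.4 in D16S+ and 1418 in iPSCs.

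Keratins of stratified and stressed epithelium were also present. Krt14, of basal epidermis, was at 0.0609 FPKM in D0 and 39.9 FPKM in D16S-, Krt17 at 0.101 FPKM in D0 and 39.6 FPKM in D16S-, and Krt80 at 0.452 FPKM in D0 and 31.2 FPKM in D16S-. In iPSCs these 3 were at 4.95, 2.69 and 1.86 FPKM. Krt5, the partner of Krt14 in epidermis, reached 1.64 FPKM, and Krt1 and Krt10, of the layers above, were at 0.579 and 0.331 FPKM. The simple keratins Krt8 and Krt18 were abundant in iPSCs too, at 483 and 711 FPKM. Krt14, Krt16 and Krt17 are close in sequence, and their values may be lowered by the removal of reads with several loci.

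Of 25 genes for differentiation of stratified epithelium, 22 were kept and 18 of these were at least 2-fold higher and none lower. Their median was 4.56, or 3.85 over all members. The median of the kept members against D0 was 2.73 in D9T-, 4.33 in D12S+ and 2.84 in D16S+. Aldh3a1 (chromosome 11, 61021039 to 61031923, plus strand), an aldehyde dehydrogenase abundant in cornea, had the largest higher value of the comparison under the rule of size once the 4 factor genes were left out, with 3.31 FPKM in D0 and 869 FPKM in D16S- (7.66). Slurp1 (chromosome 15, 74557074 to 74558456, minus strand), a secreted Ly6-type protein of skin, was listed at 0 in D0 and was at 124 FPKM in D16S-. Anxa8, an annexin of skin epithelium, was at 5.42 FPKM in D0 and 219 FPKM in D16S-, Perp, a desmosome protein of stratified epithelium, at 2.28 FPKM in D0 and 99.2 FPKM in D16S-, and transglutaminase 1 (Tgm1), which crosslinks the cornified envelope, at 1.06 FPKM in D0 and 62.9 FPKM in D16S-. The members loricrin (Lor, 0.62 and 0.677 FPKM), involucrin (Ivl, 6.7 and 3.91 FPKM) and Sprr1a (42.4 and 36.3 FPKM) did not share the difference. Krtdap (5.91), Dmkn (5.88), Cnfn (5.25) and Sprr1b (2.05) of the same list did.

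Other genes among the 12 largest higher values were Podxl, Fgfbp1, Ndufa4l2, Klk1, 8430408G22Rik, Srgn, Prelp, Crym, Krt7 and Rhox6. Podocalyxin (Podxl, chromosome 6, 31469488 to 31513981, minus strand), a sialomucin of apical cell surfaces, was at 0.379 FPKM in D0 and 255 FPKM in D16S-. Fgfbp1, a secreted binding protein of FGFs, was at 0.352 FPKM in D0 and 231 FPKM in D16S-, and Crym, a thyroid hormone binding protein, at 1.46 FPKM in D0 and 336 FPKM in D16S-. Klk1, a kallikrein protease of glandular epithelium, was listed at 0 in D0, was at 156 FPKM in D16S-, and was higher still in D12S- at 244 FPKM. Rhox6, a homeobox gene of placenta and germ cells, was listed at 0 in D0 and stood at 111 FPKM in D16S-, below its 143 FPKM in iPSCs.

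Pluripotency genes were detectable but far below their level in pluripotent cells. Of 28 kept members of a 35-gene list, 26 were at least 2-fold higher than in D0, with a median of 2.15, while the medians of the same genes against D0 were 5.56 in D16S+ and 6.01 in iPSCs. These values share D0. Nanog (chromosome 6, 122657507 to 122664651, plus strand), a core pluripotency factor, was at 0.0889 FPKM in D0 and 8.99 FPKM in D16S-, and at 192 FPKM in D16S+. Esrrb, a nuclear receptor of the same network, reached 4.97 FPKM in D16S-, against 134 FPKM in the successful fraction. Dppa5a, a gene restricted to pluripotent and germ cells, was at 1.34 FPKM in D0 and 76.9 FPKM in D16S- and at 3582 FPKM in D16S+, and Zfp42 (Rex1) reached 1.42 FPKM against 54.2 FPKM. Prdm14, Dppa2, Tet1, Tcl1, Nr5a2 and Dppa3 stayed under 1 FPKM in D16S-. Such levels in a sorted fraction can come from few cells or from low expression in many, which cannot be told apart here. Sall1, a zinc finger factor of several tissues, was the member closest to its level in the successful fraction, with 0.761 FPKM in D0 and 23.8 FPKM in D16S- and 29.2 FPKM in D16S+. Tbx3, a T-box factor, was the one member at least 2-fold lower (14.4 and 3.61 FPKM).

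MHC class I and antigen processing genes formed another group that was higher. Of 13 genes, 12 were at least 2-fold and 10 at least 4-fold higher, with a median of 3.20. The class I heavy chain gene H2-K1 (chromosome 17, 34132962 to 34137278, minus strand) was at 53.2 FPKM in D0 and 941 FPKM in D16S-, and beta-2-microglobulin (B2m), the shared light chain, at 289 FPKM in D0 and 903 FPKM in D16S-. Psmb8 and Psmb9, catalytic subunits of the immunoproteasome, were at 37.3 FPKM in D0 and 398 FPKM in D16S- and at 5.23 FPKM in D0 and 205 FPKM in D16S-. The peptide transporter genes Tap1 and Tap2 were at 139 and 138 FPKM in D16S- against 18.9 and 23.6 FPKM in D0, and Nlrc5, the transactivator of class I genes, was at 1 FPKM in D0 and 18.5 FPKM in D16S-.

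This group was lower than D0 at day 3 and reached its highest median on the route at day 16. The medians against D0 were -1.37 in D3, 0.51 in D6T+, 1.83 in D9T+, 1.81 in D12S- and 3.20 in D16S-, with 0.52 in D16S+ and -1.48 in iPSCs. H2-K1 itself stood at 21.9, 339 and 138 FPKM in D3, D12S- and D16S+. Class I genes are near copies of each other, so the level of any one of them is uncertain, which does not apply to B2m, Tap1 or Psmb9.

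Of 25 kept genes of the interferon response, 6 were at least 2-fold higher and 4 lower (median 0.45), so the list as a whole was not shifted as the class I genes were. Among the higher genes were the guanylate binding genes Gbp2 (12.9 FPKM in D0 and 353 FPKM in D16S-) and Gbp3 (20.4 FPKM in D0 and 143 FPKM in D16S-), the antiviral synthetase Oas2 (2.45 FPKM in D0 and 50.5 FPKM in D16S-) and the transcription factor Irf1 (45.8 FPKM in D0 and 174 FPKM in D16S-). Lower were the antiviral genes Ifit2 (12.9 FPKM in D0 and 3.35 FPKM in D16S-), Ifit3 (49.2 FPKM in D0 and 18.5 FPKM in D16S-) and the ubiquitin-like Isg15 (504 FPKM in D0 and 244 FPKM in D16S-).

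Leukocyte markers did not share a direction. Of 14 genes, 9 were kept, of which 4 were at least 2-fold higher and 3 lower, and the summed level was 39.3 FPKM in D0 and 209.3 FPKM in D16S-. The defining marker Ptprc (CD45) was at 0.0273 and 0.0269 FPKM, and Emr1 (F4/80) and Itgam were under 1 FPKM in both. The macrophage gene Lyz2 was at 9.47 FPKM in D0 and 0.509 FPKM in D16S-, and Tyrobp and Fcer1g were also lower. Higher were Laptm5, a lysosomal membrane protein (1.37 FPKM in D0 and 57.3 FPKM in D16S-), the lysosomal glycoprotein gene Cd68 (9.05 FPKM in D0 and 115 FPKM in D16S-) and Csf1r (1.55 FPKM in D0 and 19.9 FPKM in D16S-). Laptm5 was at 40.5 FPKM in iPSCs as well. The part of cells with these markers in the class I values was not tested. The endothelial markers Esam (1.35 FPKM in D0 and 32.6 FPKM in D16S-) and Tek (0.0624 FPKM in D0 and 7.74 FPKM in D16S-) were higher, while Cdh5 was at 11.8 and 5.77 FPKM and Emcn was listed at 0 in D16S-.

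Genes of glycolysis and the hypoxia response were higher without exception in sign, with 15 of 24 at least 2-fold and 12 at least 4-fold higher and a median of 2.11. The largest were the glucose transporter Slc2a3 (1.87 FPKM in D0 and 167 FPKM in D16S-), the hypoxia-inducible carbonic anhydrase Car9 (0.152 FPKM in D0 and 54.7 FPKM in D16S-) and aldolase C (0.96 FPKM in D0 and 73.2 FPKM in D16S-). The lactate exporter Slc16a3 was at 4.74 FPKM in D0 and 152 FPKM in D16S-, and Egln3, an oxygen-sensing prolyl hydroxylase, at 11.3 FPKM in D0 and 144 FPKM in D16S-. The abundant core enzymes differed less, with Ldha at 687 FPKM in D0 and 1101 FPKM in D16S-, Pkm at 2297 FPKM in D0 and 2477 FPKM in D16S- and Tpi1 at 465 FPKM in D0 and 843 FPKM in D16S-, all within 2-fold. Ndufa4l2, a mitochondrial protein induced by hypoxia and among the 12 largest differences, was at 0.626 FPKM in D0 and 269 FPKM in D16S-. The medians of this list were 0.90 in D9T+, 2.17 in D12S-, 2.11 in D16S+ and 0.45 in iPSCs.

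Of 22 subunits of oxidative phosphorylation, 20 lay within 2-fold, 2 were lower and none higher, beside 12.9% of all kept genes lower, and the median was -0.42. Scaled to the same total FPKM, this median was -0.12. NRF2 antioxidant targets had 12 of 18 genes at least 2-fold higher and 1 lower (median 1.38). Among them were the gastrointestinal glutathione peroxidase Gpx2, listed at 0 in D0 and at 102 FPKM in D16S-, heme oxygenase 1 (Hmox1, 315 FPKM in D0 and 1227 FPKM in D16S-) and the cystine transporter Slc7a11 (0.418 FPKM in D0 and 14.6 FPKM in D16S-). Srxn1 (166 and 90.4 FPKM) and Akr1b8 (389.9 and 129.8 FPKM), also NRF2 targets, were not higher. Cholesterol synthesis genes had a median of -0.52, with 5 of 20 at least 2-fold lower and none higher, and ribosome assembly genes a median of 0.28, with 19 of 20 within 2-fold.

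Proliferation genes were lower than in D0. Of 20 mitosis genes, 9 were at least 2-fold lower and none higher (median -0.92), and of 21 DNA replication genes 5 were lower and none higher (median -0.73). Of all kept genes, 12.9% were at least 2-fold lower. Survivin (Birc5), of the chromosomal passenger complex, was at 82.8 FPKM in D0 and 22.1 FPKM in D16S-, and the mitotic kinase Plk1 at 85.5 FPKM in D0 and 27.2 FPKM in D16S-. Mki67, the proliferation marker, was at 13.2 FPKM in D0 and 5.45 FPKM in D16S-. In D16S+ the same lists had medians of 1.10 and 1.25 against D0, and Plk1 stood at 101 FPKM. With both libraries scaled to the same total FPKM, the medians of D16S- were -0.62 for mitosis and -0.44 for replication.

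Among the inhibitors of cyclin-dependent kinases, which are used as marks of senescence, Cdkn2a and Cdkn1a were high in D0 already and lay within 2-fold in D16S-, whereas Cdkn2b and Cdkn2c were lower. Cdkn2a (chromosome 4, 88920377 to 88940557, minus strand), the gene of p16 and p19Arf, was at 289 FPKM in D0 and 327 FPKM in D16S-, and Cdkn1a (p21) at 626 FPKM in D0 and 601 FPKM in D16S-. In D16S+ these were at 80.2 and 152 FPKM. Cdkn2b (p15) was at 106 FPKM in D0 and 35.1 FPKM in D16S- and Cdkn2c (p18) at 19.8 FPKM in D0 and 3.7 FPKM in D16S-. Of 15 p53 targets, 3 were 2-fold higher and 2 lower, beside 14.5% and 12.9% of all kept genes. Ccng1 was at 72.5 and 29.8 FPKM and Btg2 at 39.8 and 96.6 FPKM.

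Secreted genes linked to senescence and inflammation went both ways. Of 23 kept genes, 11 were at least 2-fold lower and 5 higher. Lower, beside Mmp3 and Mmp10, were the plasminogen activator Plau (519 FPKM in D0 and 23.2 FPKM in D16S-), the chemokines Cxcl12 (77 FPKM in D0 and 1.7 FPKM in D16S-) and Ccl2 (882 FPKM in D0 and 299.7 FPKM in D16S-) and the protease inhibitor Timp1 (1596 FPKM in D0 and 471 FPKM in D16S-). Among the higher genes were Igfbp3, an IGF binding protein (61.8 FPKM in D0 and 553 FPKM in D16S-), and the EGF family ligand Hbegf (12.9 FPKM in D0 and 37.8 FPKM in D16S-). Il6 reached 5.96 FPKM, and Il1a and Il1b stayed under 1 FPKM in both libraries. Igfbp3 had reached 292 FPKM in D12S-, against 58.5 FPKM in D16S+.

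Integrins changed in composition. Itgb4 (chromosome 11, 115836023 to 115869726, plus strand), the beta chain of the hemidesmosome integrin of epithelia, was at 1.53 FPKM in D0 and 185 FPKM in D16S- (6.20), and its partner Itga6 was at 14.2 and 17 FPKM. The fibronectin receptor chain Itga5 was lower, at 245 FPKM in D0 and 64.2 FPKM in D16S-. The beta chain Itgb1 was lower too, at 209.6 FPKM in D0 and 74.4 FPKM in D16S-. The laminin receptor chains Itga3 (14.8 FPKM in D0 and 47.5 FPKM in D16S-) and Itga7 (18 FPKM in D0 and 54.1 FPKM in D16S-) were higher. Of 11 kept integrin genes, 3 were at least 2-fold higher and 3 lower, beside 14.5% and 12.9% of all kept genes. Laminin chains followed different directions too, with Lama1 at 1.38 FPKM in D0 and 13.7 FPKM in D16S-, Lamc1 at 60.1 FPKM in D0 and 136 FPKM in D16S- and Lamb1 at 328 FPKM in D0 and 105 FPKM in D16S-.

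Signalling genes showed mixed directions. Of all kept genes, 14.5% were at least 2-fold higher and 12.9% lower. Among TGF-beta genes 6 of 15 were at least 2-fold lower and 1 higher (median -0.73), with the receptor gene Tgfbr2 at 129.7 FPKM in D0 and 62.8 FPKM in D16S-. Of 14 BMP genes 7 were lower and 1 higher. The BMP antagonist Grem1 was at 257 FPKM in D0 and 17.7 FPKM in D16S- and the antagonist Chrd at 1.83 FPKM in D0 and 18.1 FPKM in D16S-. Of 16 Wnt genes 6 were higher and 5 lower, with the ligand Wnt5a at 95.5 FPKM in D0 and 2.18 FPKM in D16S- and the feedback inhibitor Notum at 2.26 FPKM in D0 and 21.7 FPKM in D16S-. Axin2, a Wnt target, was at 5.04 FPKM in D0 and 1.98 FPKM in D16S-. Of 17 genes of MAPK feedback and growth factor response, 6 were at least 2-fold higher and 3 lower. The immediate early gene Fos (16.2 FPKM in D0 and 145 FPKM in D16S-) and Socs3 (61.8 FPKM in D0 and 277 FPKM in D16S-), which is induced by LIF signalling, were higher, as were Fosb, Egr1 and Dusp5. Etv4, Spry2 and Dusp6, which respond to FGF and MAPK signalling, were lower, with Etv4 at 85.6 FPKM in D0 and 18 FPKM in D16S-, while Etv5, of the same ETS group, was higher (1.53), at 59.7 FPKM in D16S-.

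Hox genes, which record the body position a fibroblast came from, differed in both directions. Of 35 kept Hox genes, 23 lay within 2-fold against 9087 of 12528 genes in all, 9 were lower and 3 higher (median -0.68). The medians of the same genes were -1.48 in D16S+ and -2.12 in iPSCs, again against D0. Hoxc6 was at 30.3 FPKM in D0 and 13.1 FPKM in D16S- and at 0.146 FPKM in iPSCs, and Hoxa10 at 16.1 FPKM in D0 and 9.35 FPKM in D16S- and at 0.146 FPKM in iPSCs. The largest lower value was that of Hoxb9 (21.7 FPKM in D0 and 2.57 FPKM in D16S-), and Hoxd9 (1.39 FPKM in D0 and 4.9 FPKM in D16S-) and Hoxd4 (1.58 FPKM in D0 and 5.27 FPKM in D16S-) were higher.

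Imprinted genes had 7 of 22 at least 2-fold higher and 5 lower, beside 14.5% and 12.9% of all kept genes. The retrotransposon-derived Peg10 was at 4.56 FPKM in D0 and 65.7 FPKM in D16S- and the growth-linked noncoding RNA H19 at 454 FPKM in D0 and 1152 FPKM in D16S-, while Ndn was at 103 FPKM in D0 and 16 FPKM in D16S-. Markers of other lineages differed from list to list. Of 14 trophoblast genes 10 were kept and 7 were at least 2-fold higher, led by Krt7 and by Hand1, a helix-loop-helix factor of trophoblast and mesoderm (0.0788 FPKM in D0 and 24.2 FPKM in D16S-), but Cdx2 and Tpbpa stayed under 1 FPKM. The other higher trophoblast genes were Tfap2c (3.77), Tead4 (2.14), Plac1 (2.04), Gata3 (1.41) and Elf5 (1.08). The median of the kept trophoblast genes against D0 was 1.72 in D16S- and 2.16 in iPSCs. Of 14 primitive endoderm genes 7 were kept, with 2 at least 2-fold higher and 3 lower, and Sox17, Foxa2 and Hnf4a stayed under 1 FPKM. Of 15 neural genes 5 were kept, none 2-fold higher. Of 15 germline genes silenced by methylation, 3 were kept, among them Tex19.1 at 0.231 FPKM in D0 and 17.6 FPKM in D16S-.

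**Figure D3:**
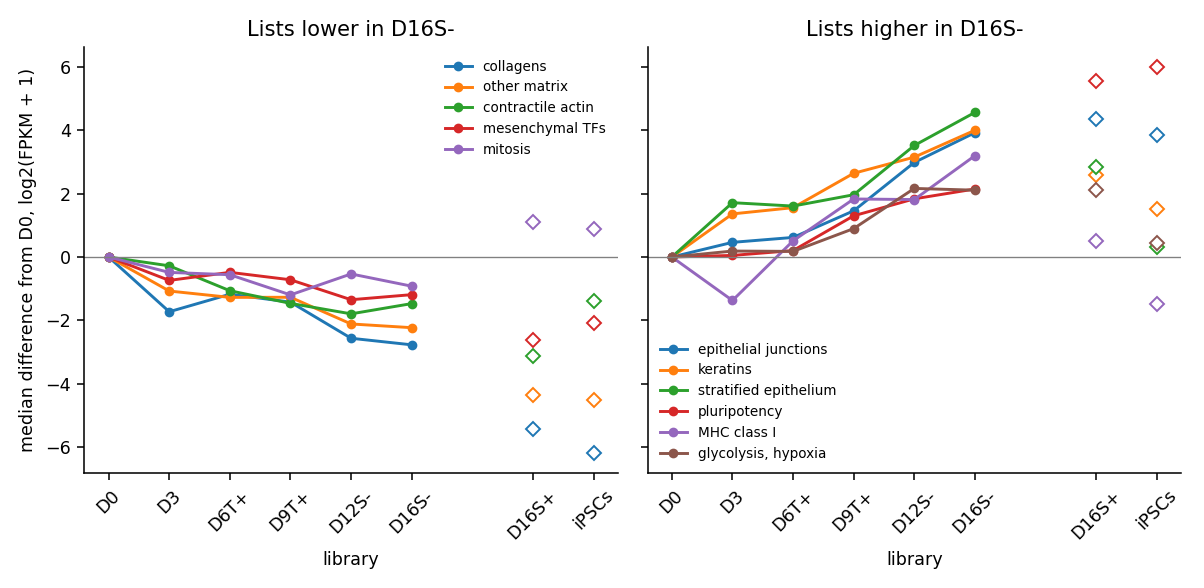
Lines give the median difference from D0 of the kept members of each list in D3, D6T+, D9T+, D12S- and D16S-, and open diamonds the medians in D16S+ and iPSCs, all on the log2(FPKM + 1) scale and from 1 library each. The collagen median of D16S- (-2.77) lies between 0 and that of D16S+ (-5.44). The MHC class I, keratin and stratified epithelium medians are higher in D16S- than in D16S+ and iPSCs. In D12S+, which is not drawn, these medians were 0.95, 3.20 and 4.33.

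Some genes of D16S- lay outside the range spanned by D0 and pluripotent cells. Among the kept genes, 278 (2.22%) were at least 4-fold above all 3 of D0, iPSCs and mESCs, and 6 (0.0479%) were at least 4-fold below all 3. The median level of the 278 genes was 22.3 FPKM in D16S-, 0.589 FPKM in D0 and 0.482 FPKM in iPSCs. It was 1.93, 5.63, 13.4 and 16.2 FPKM in D3, D6T+, D9T+ and D12S-, and 4.70 FPKM in D16S+. Of the 278 genes, 146 had their highest value of the 12 libraries in D16S- and 47 in D12S-. All 278 were chosen for a high D16S- value, which by itself favours D16S- over the other libraries.

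Of the lists, MHC class I and antigen processing gave 10 of 13 kept genes to this class, stratified epithelium 10 of 22, keratins 7 of 12 and interferon response 5 of 25. The 12 genes furthest above all end points were Aldh3a1, Prelp, Slurp1, 8430408G22Rik, Crym, Clec3b, Ly6a, Adh7, Avil, Alox15, Ly6c1 and Srgn. Prelp, a leucine-rich proteoglycan of connective tissue, was at 138 FPKM in D16S- against 0.0133 FPKM in D0 and 0.0485 FPKM in iPSCs, so a matrix gene was also among the higher genes. Adh7, an alcohol dehydrogenase of stomach and cornea epithelium, was at 1.33 FPKM in D0 and 114 FPKM in D16S- and already at 110.3 FPKM in D3. Clec3b (tetranectin) was at 0.0549 FPKM in D0 and 91.7 FPKM in D16S- and peaked on the route in D9T+, at 274 FPKM. Alox15, a lipoxygenase, was at 0.0202 FPKM in D0 and 48.2 FPKM in D16S- with 28.1 FPKM in D12S-, and serglycin (Srgn), a proteoglycan of secretory granules, at 0.587 FPKM in D0 and 228 FPKM in D16S-. All 12 genes had a lower value in D16S+ than in D16S-, but they were chosen for high D16S- values, which favours this order.

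The 6 genes below all end points were Tcfl5, Gjc1, Tk1, Mylpf, Gm12669 and Snora7a. Gm12669 and Snora7a did not meet the rule of size and were named because the count is small. Tk1 (chromosome 11, 117676840 to 117687406, minus strand), the thymidine kinase of S phase, was at 122 FPKM in D0 and 26.2 FPKM in D16S-, against 65.3 FPKM in D12S-, 123 FPKM in iPSCs and 136 FPKM in mESCs. Gjc1, which encodes connexin 45, was at 15.2 FPKM in D0 and 1.93 FPKM in D16S- and at 38.6 FPKM in iPSCs, and Mylpf, a fast muscle myosin light chain, at 182 FPKM in D0 and 43.3 FPKM in D16S- and at 915 FPKM in iPSCs. At 2-fold, 754 genes (6.02% of the kept genes) were above and 155 (1.24%) below all 3 end points. The 155 genes held 6 of 20 mitosis and 5 of 21 replication genes.

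**Figure D4:**
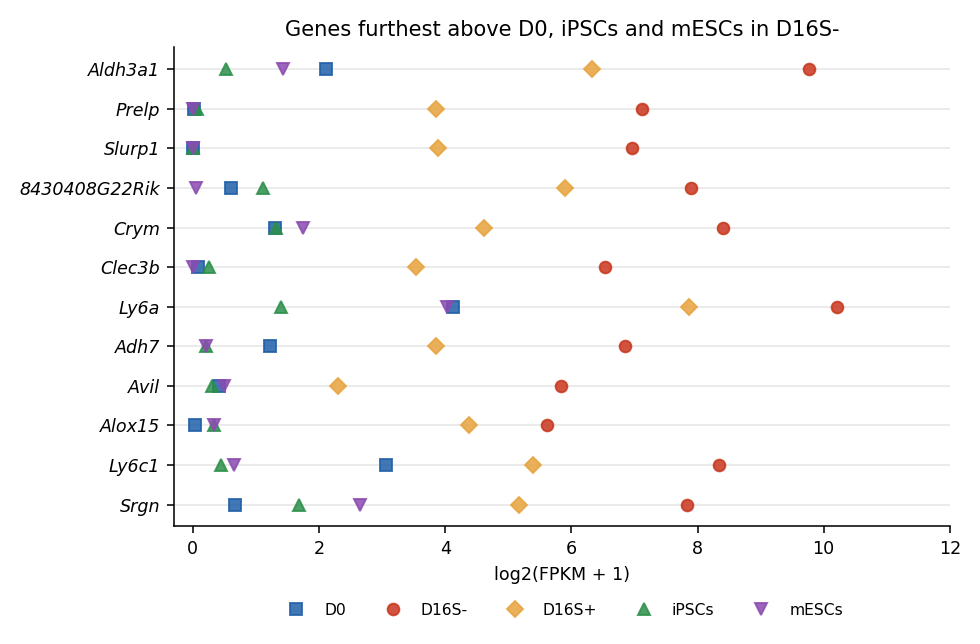
The 12 genes furthest above all of D0, iPSCs and mESCs in D16S- are listed on the y axis, and each symbol is the log2(FPKM + 1) of 1 library. The symbols stand for D0, D16S-, D16S+, iPSCs and mESCs. For each gene the red circle (D16S-) lies furthest to the right, followed by the orange diamond (D16S+).

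The route of the unsuccessful cells was read back from day 16. For each gene past 2-fold in D16S-, the earliest of D3, D6T+, D9T+, D12S- and D16S- that was at least 2-fold from D0 in the same direction was found. Lower genes appeared early, with 740 of 1620 (45.7%) past 2-fold in D3, 88 in D6T+, 271 in D9T+, 342 in D12S- and 179 first in D16S-. Higher genes were spread over the route, with 471 of 1821 (25.9%) in D3, 197 in D6T+, 506 in D9T+, 344 in D12S- and 303 first in D16S-. Every comparison shares D0, so an error in a D0 value recurs in each library. With all libraries scaled to the same total FPKM, 513 of 1075 lower and 642 of 2303 higher genes were past 2-fold in D3. D3 and D0 were unsorted and the later libraries sorted, and the sorting marker changed between D9T+ and D12S-. The cells of D12S- and D16S- therefore need not descend from Thy-1+ cells. With the Thy-1- fractions of days 6 and 9 in place of the Thy-1+ fractions, 426 lower genes appeared on day 6 and 104 on day 12.

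Of the collagens, 8 of the 11 lower genes were past 2-fold in D3, as were 13 of the 21 lower matrix genes, whereas none of the 10 lower contractile genes was past it before D6T+. Among the higher genes, 9 of 12 keratins and 13 of 18 stratified epithelium genes were past 2-fold in D3. For the epithelial junction genes it was 10 of 28 in D3, 9 in D9T+ and 4 in D12S-, and for pluripotency genes 1 of 26 in D3 and 15 in D9T+. None of the 12 higher MHC class I genes was past it in D3, and 8 appeared in D9T+.

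**Figure D5:**
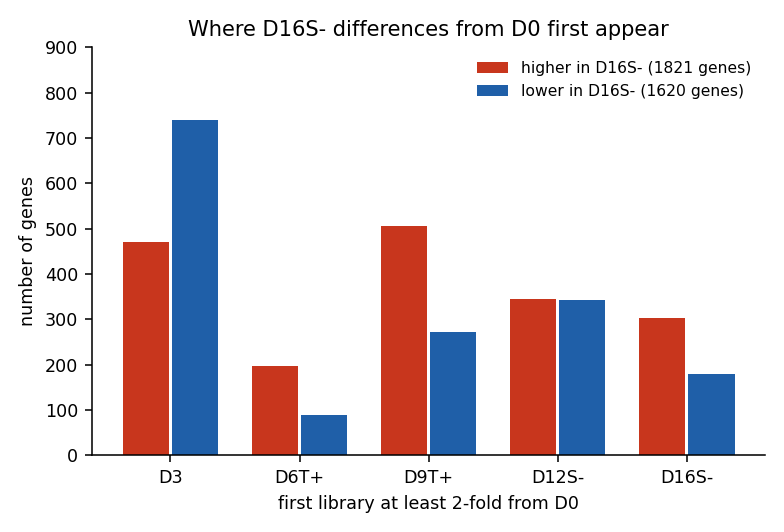
Bars give the number of genes, of those at least 2-fold higher (red) or lower (blue) in D16S- than in D0, whose earliest library at least 2-fold from D0 in that direction is the one on the x axis. The tallest bar is that of the 740 lower genes in D3, and the tallest red bar that of the 506 higher genes in D9T+.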

How the data were processed

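Each condition was 1 library of polyA RNA. The labels give a TruSeq stranded mRNA kit and the study's methods another TruSeq RNA kit, so whether strand was kept is uncertain and reads of overlapping antisense genes may not be told apart. The authors mapped reads to mm9 with STAR, removed reads with more than 2 mismatches or several loci, which lowers genes with close copies, and estimated FPKM with cuffdiff. The deposited FPKM come with modelled intervals (95% by the default of cuffdiff). Software versions, the annotation and the library scaling are not given in the sources used here. Fragment totals were not used, so absolute depth is unknown, and depth relative to D0 was read from genes under 0.5 FPKM. Groups came from the sample titles.

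Values were compared as log2(FPKM + 1) in genes of at least 1 FPKM in D0 or D16S-, with Python 3.11.15, pandas 2.3.3, numpy 2.4.6 and matplotlib 3.10.9. No test was possible with 1 library a side, and counts past 2-fold or 4-fold are descriptions. The counting functions were tested on simulated data. Genes named are the 12 largest differences in each direction among genes of at least 10 FPKM and a locus of at least 1000 bases without the OSKM genes, the 12 furthest above and up to 8 furthest below all end points, the 8 most abundant fibroblast list genes, Thy1, OSKM and members of the gene lists, preferring those furthest from 0 or in contrast to their list. The genes compared and the lists were chosen with earlier results of these data known. Positions are from GENCODE M1 (739 of 755 named or listed genes matched), and promoters from RefSeq. Alternatives were another pseudocount, other FPKM minimums, scalings, fold limits, a minimum locus length, the deposited intervals, the Thy-1- fractions and, chosen after seeing the data, leaving out genes whose cuffdiff status was not OK. Some list members are not reported here.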

Additional observations from a re-analysis of the deposited data

Results flagged for a closer look

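For 6 of the list or otherwise named genes, the D16S- and D16S+ libraries lay at least 2-fold from D0 in opposite directions, and both differences share D0. The difference between the fractions was not tested, since each had 1 library. On the log2(FPKM + 1) scale, the mitotic cyclin gene Ccna2 differed from D0 by -1.19 in D16S- and by 1.36 in D16S+. Ccnb2, another mitotic cyclin gene, differed by -1.02 and 1.06, and the proliferation marker Mki67 by -1.14 and 1.11. The primase gene Prim1 differed by -1.11 and 1.25. The muscle gene Mylpf differed by -2.05 and 1.07. Itga7, a laminin receptor chain, went the other way, with 1.54 in D16S- and -1.08 in D16S+.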

How the results depend on the processing

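Of 222 recomputed values, 180 moved by less than 1.5-fold and 42 moved by more. Gene counts have no direction to change, and of the list medians among these values 0 changed direction. The cause of these moves was not tested beyond what each setting changes. With a pseudocount of 0.1 FPKM, 1318 genes were 4-fold higher and 737 lower, 448 were above and 29 below all end points, and 882, 315 and 187 higher genes appeared first in D3, D6T+ and D16S-. List medians became -5.66 for muscle, 5.80 for epithelial junctions, 4.64 for epithelial regulators, 6.02 for keratins, 5.25 for stratified epithelium and 4.75 for pluripotency. With a minimum of 5 FPKM, 1202 genes were 2-fold higher, the medians were 3.06 for epithelial regulators, 5.20 for keratins and 3.05 for pluripotency, 196 and 115 higher genes appeared first in D12S- and D16S-, and 58 lower genes in D6T+. Without a minimum, the medians were 2.44 for keratins and 3.85 for stratified epithelium. Scaled to the same total FPKM, 1075 genes were 2-fold lower, 178 and 196 of them first in D9T+ and D12S-. This scaling also turned the sign of list medians near 0 that were not among those values, from -0.08 to 0.09 for cartilage and bone, -0.10 to 0.17 for leukocyte, -0.20 to 0.10 for cell cycle control, -0.04 to 0.22 for imprinted and -0.06 to 0.24 for MAPK feedback genes, and that of all kept genes from -0.07 to 0.20. Non-overlapping intervals left 49 higher and 6 lower genes. A 2-fold limit gave 754 genes above and 155 below all end points. A 4-fold limit for the first library gave 126, 66, 204, 194 and 154 higher and 193, 20, 53, 121 and 31 lower genes from D3 to D16S-. The Thy-1- fractions gave 352 higher and 426 lower genes on day 6 and 104 lower genes on day 12.

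No paired analysis was possible because each condition had 1 library, and for the same reason there was no replicate to leave out. Gene differences cannot be set against biological spread, and depth, culture time, medium, factors and sort all go with the library.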
